A study of Mus musculus with 7 samples.

Results

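The genes described here encode the secreted inhibitory cytokines of regulatory T (Treg) cells and the receptor of the best known of them: Il10, the 2 chains of interleukin-35 (Ebi3 and Il12a), Fgl2, and the 2 receptor chains Il10ra and Il10rb. The 6 genes were taken by symbol from the 19736 gene symbols that each library lists, and all 6 passed the filter on low values that left 14582 genes for testing. The libraries hold RNA of Treg cells sorted from digests of whole lung as Foxp3-EGFP+ CCR6+ cells (3 libraries) or Foxp3-EGFP+ CCR6- cells (4 libraries), where EGFP reports Foxp3, the transcription factor of Treg cells, and CCR6 is a chemokine receptor that binds CCL20. Both groups came from female mice aged 5 to 7 weeks that carried the Foxp3-EGFP reporter and the R576 allele of Il4ra, the alpha chain of the interleukin-4 receptor. The mice had an injection of 100 µg of ovalbumin, a boost 2 weeks later, then inhaled nebulised 1% ovalbumin daily (30 min each time, 3 days, from day 29), and were killed on day 32. Every library carries the R576 allele and the allergen challenge, so neither is compared with its absence. Nothing in the labels ties each library to a mouse of its own, and p-values therefore measure the spread between libraries, which may be technical.

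Interleukin-10 is a dimer that binds a receptor made of IL-10RA, the ligand-binding chain, and IL-10RB, a chain shared with other cytokines of the family, and signals mainly through JAK1, TYK2 and STAT3 to restrain antigen-presenting cells and inflammation. Interleukin-35 is a heterodimer of EBI3 and the p35 chain encoded by Il12a. Each chain also has another partner, since EBI3 pairs with IL-27p28 to form interleukin-27 and p35 pairs with IL-12p40 to form interleukin-12. FGL2 is a fibrinogen-like protein whose secreted form binds Fc gamma receptors on antigen-presenting cells.

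One library has to be named before the results. CCR6+ replicate 2 held 11607780 reads, against 27520975 to 47261246 in the others, and 2.16% of its genes were at 0, against 6.89% to 29.7%. Its summed level of 8 T and Treg cell markers was the lowest, at 97822 normalised counts against 153199 to 263383. Its summed markers of dendritic cells were at 32285 against 1891 to 7348, and those of epithelium at 77898 against 1818 to 11554. Ccr6 separated the groups in all libraries, with 2750 to 7309 normalised counts in the CCR6+ and 271 to 909 in the CCR6- libraries, and Foxp3 stood between 12206 and 50875 in all 7. The differences of the 6 genes are therefore given with and without CCR6+ replicate 2. In bulk libraries, fewer cells of a type and less RNA per cell cannot be told apart.

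All 6 genes had positive log2 differences (CCR6+ minus CCR6-, on log2 of the normalised count plus 1), but none passed the test over all genes, and the sign turned for Ebi3 under quantile normalization and for Il10rb under TMM scaling and edgeR. Of all 14582 genes tested, 56.9% had a positive difference, and 0% passed at an adjusted p of 0.05 (limma, Benjamini-Hochberg over all genes kept). The median of the 6 differences was 0.53, beside 0.097 over all genes tested. With CCR6+ replicate 2 left out, 5 of the 6 genes still passed the filter, without Il12a, whose difference over all 7 libraries was 1.87. Their median was 0.54, beside 0.0012 over the 13272 genes then tested, of which 50.1% were positive. The medians of 0.53 and 0.54 thus cover different genes. Only Ebi3 of the 6 had groups that did not overlap, with the CCR6+ libraries higher, as had 7.96% of all genes tested, while 5.53% of all genes and 0 of the 6 had the CCR6+ libraries lower. Ebi3 was also the 1 gene of the 6 with an unadjusted p under 0.05, which 8.22% of all genes reached with a higher and 2.35% with a lower level in CCR6+ libraries.

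**Figure D1:**
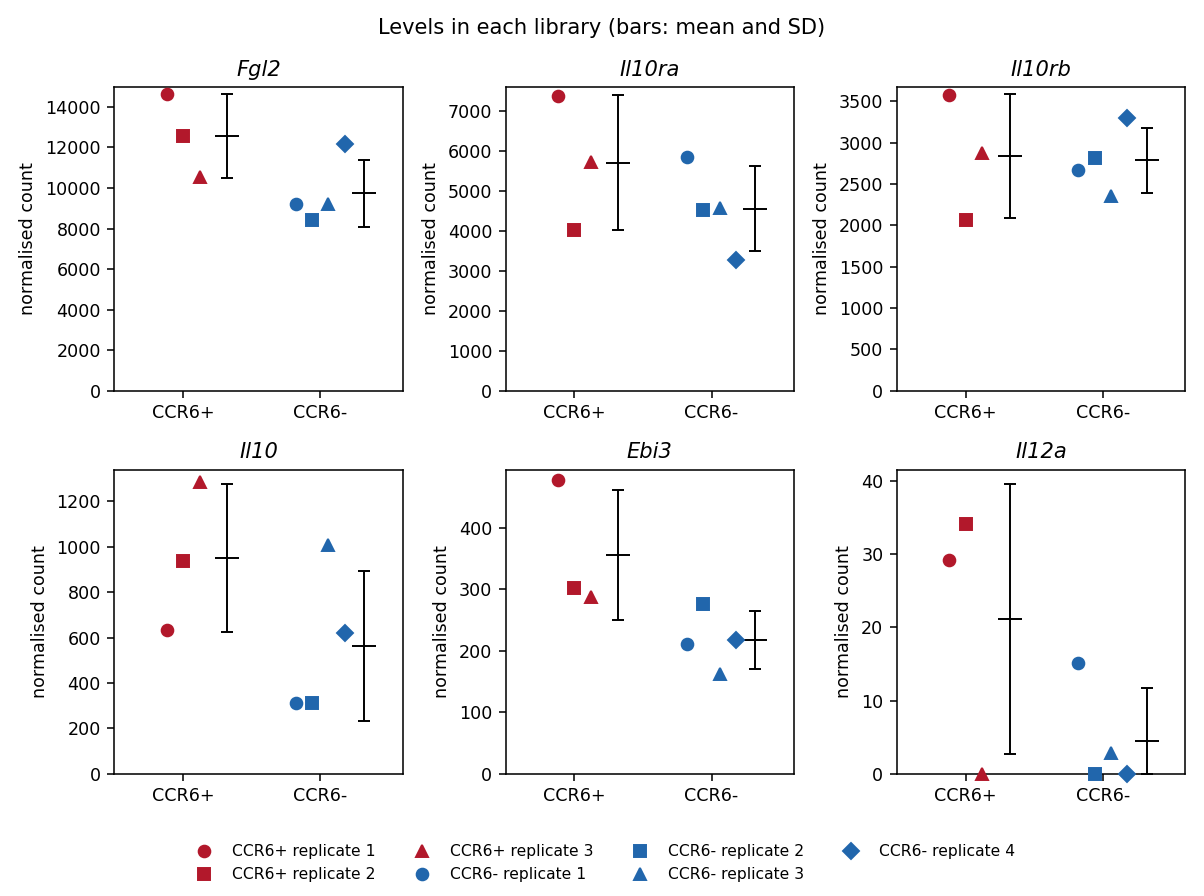
Normalised counts (vertical axes, each starting at 0) of the 6 genes in the 3 CCR6+ and 4 CCR6- libraries, 1 symbol per library, with the group mean and SD beside them (for Il12a in CCR6- libraries the lower bar ends at 0). The CCR6+ libraries lie above all CCR6- libraries for Ebi3 only, from 287 to 479 against 162 to 277, and Il12a is at 0 in 3 libraries.

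Il10 had the widest spread of the 5 genes read in every library, with its highest value 4.11 times its lowest. It stood at 632, 937 and 1286 normalised counts in CCR6+ replicates 1 to 3, and at 313, 313, 1009.7 and 621 in CCR6- replicates 1 to 4. The CCR6+ mean was 1.69 times the CCR6- mean, at 952 ± 327 (SD, n = 3) against 564 ± 331 (n = 4), yet the groups overlapped, because CCR6- replicate 3 lay above CCR6+ replicates 1 and 2. The log2 difference was 0.87 (SE 0.50, 95% interval -0.34 to 2.09), with an adjusted p of 0.521 (limma) and an exact permutation p of 0.2 (two-sided, over all 35 assignments of the libraries to the groups, smallest possible 0.0286). It was 0.86 without CCR6+ replicate 2, with an adjusted p of 0.793 (limma). Between 331 and 1267 reads of Il10 lay behind each value, a counting error of 2.81% to 5.50%. The SD between libraries came to 34.4% of the mean in the CCR6+ and 58.6% in the CCR6- group.

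The high Il10 values fell in the libraries that had the fewest genes at 0. CCR6+ replicates 2 and 3 and CCR6- replicate 3, with 2.16%, 6.89% and 7.09% of the genes at 0, held the 3 highest values of Il10. The other 4 libraries, with 16.4% to 29.7% of the genes at 0, had at most 632. Both libraries numbered 3 were the highest of their group. The part of the share of genes at 0 in the difference was not tested. Macrophages also make IL-10, and the summed level of 12 macrophage and monocyte markers ran from 10354 to 124552 in the CCR6+ and from 1488 to 35333 in the CCR6- libraries. All 11 tested markers of that list had positive differences and 0 passed. Marco was at 0 in CCR6+ replicate 1 and CCR6- replicate 2, and Adgre1 and Mrc1 in CCR6- replicate 4. Il10 and the log2 of this sum gave Pearson's r = -0.19 and Spearman's rho = -0.11 over the 7 libraries. Without CCR6+ replicate 2, r was -0.45. The part of these cells in the Il10 values was not tested. The Il10 gene lies on mm10 chromosome 1 from 131019845 to 131024974 on the plus strand, with 5 exons that overlap no other annotated gene.

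Ebi3, the chain shared by interleukin-35 and interleukin-27, stood at 479, 303 and 287 normalised counts in CCR6+ replicates 1 to 3. In CCR6- replicates 1 to 4 it stood at 212, 277, 162 and 218. All CCR6+ libraries were above all CCR6- libraries, and the CCR6+ mean was 1.64 times the CCR6- mean, at 356 ± 106 (n = 3) against 217 ± 47.0 (n = 4). The log2 difference was 0.70 (SE 0.27, 95% interval 0.035 to 1.36). It did not pass, with an adjusted p of 0.467 (limma) and an exact permutation p of 0.0571. Without CCR6+ replicate 2 the difference was 0.80, the groups again did not overlap, as for 10.9% of all genes in that direction and 9.43% in the other, and the exact permutation p was the smallest that 2 against 4 libraries allow, 0.0667. The gap between the groups was narrow. CCR6+ replicate 3 had 283 reads, with an exact Poisson 95% interval of 255 to 323 normalised counts, and CCR6- replicate 2 had 334 reads, with 248 to 308, so these neighbours did not differ beyond counting error.

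Under quantile normalization the difference of Ebi3 turned negative, at -0.17 (SE 0.63), while the median over all genes moved from 0.097 to -0.082. It was 0.66 when CCR6+ replicate 2 was left out with quantile normalization, an alternative chosen after the data were seen. Of the exonic bases of Ebi3, 23.4% overlap Gm16712, annotated as antisense. The use of strand in counting is not given in the sources used here, so reads of the pair may not have been told apart.

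Other cells of the lung also express Ebi3, dendritic cells and B cells among them, and their markers are given beside it. The summed level of 9 dendritic cell markers did not overlap between the groups either, at 4262 to 32285 in CCR6+ and 1891 to 3913 in CCR6- libraries, with Clec9a and Siglech at 0 in CCR6+ replicate 1. Within that list 7 of 8 tested markers had positive differences, as had 56.9% of all genes, and 3 (Flt3, Zbtb46 and Cd209a) had CCR6+ libraries above all CCR6- libraries, as had 7.96% of all genes. H2-Ab1 made up most of the dendritic cell sum in every library, and its own groups overlapped, at 3011 to 23548 against 1248 to 3109. Over the 7 libraries the log2 of that sum and Ebi3 gave Pearson's r = 0.60 and Spearman's rho = 0.93, and r = 0.97 without CCR6+ replicate 2. The log2 of the summed B and plasma cell markers and Ebi3 gave r = 0.74 and rho = 0.86, and r = 0.74 without that library. For the other lists r, rho and r without CCR6+ replicate 2 were as follows. Granulocytes and mast cells gave 0.61, 0.86 and 0.74, epithelium 0.59, 0.79 and 0.86, and macrophages and monocytes 0.58, 0.71 and 0.59. NK, innate lymphoid, gamma-delta and CD8 T cells gave 0.62, 0.39 and 0.72, and T and Treg cells 0.19, 0.32 and 0.70. Endothelium and stroma gave 0.12, 0.14 and -0.25. High values were thus not particular to dendritic and B cell markers. These are descriptions among 54 such relations computed, over points that share their library and depth. The 9 B and plasma cell markers summed to 14966 to 27458 in CCR6+ and 12140 to 26065 in CCR6- libraries, with all 9 differences positive and Pax5 at 0 in CCR6- replicates 3 and 4. The part of these cells in the difference of Ebi3 was not tested.

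Il12a, which encodes the p35 chain, was close to the limit of detection. It was read 34, 15 and 0 times in CCR6+ replicates 1 to 3 and 16, 0, 3 and 0 times in CCR6- replicates 1 to 4. In normalised counts this made 29.2, 34.1 and 0, and 15.1, 0, 2.76 and 0. A count of 0 allows up to 3 reads, or 3.05, 2.49 and 2.03 normalised counts in CCR6+ replicate 3, CCR6- replicate 2 and CCR6- replicate 4. The groups overlapped. The log2 difference of 1.87 had an SE of 1.61 and a 95% interval of -2.03 to 5.76, with an adjusted p of 0.609 (limma) and an exact permutation p of 0.314. It therefore fixed no direction. Without CCR6+ replicate 2 the gene did not pass the filter, and the difference of the group means of log2 values was 0.98, with an exact permutation p of 0.8.

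The libraries with 15 or more reads of Il12a were CCR6+ replicates 1 and 2 and CCR6- replicate 1. In these 3 the macrophage and monocyte markers summed to 54283, 124552 and 31197, and in the 3 libraries without a read of Il12a to 10354, 35333 and 1488. Their part in Il12a was not tested. The other partner chains were also scarce. Il12b, for IL-12p40, stood at 2.58, 284 and 20.3 in CCR6+ and at 36.9, 0, 27.6 and 0 normalised counts in CCR6- libraries, so that its highest value lay in the library with the highest sum of dendritic cell markers. Il27, for IL-27p28, reached 63.7 in CCR6+ replicate 2 and at most 9.14 elsewhere, and Il23a, for the p19 chain of interleukin-23, reached 13.6 there and at most 1.89 elsewhere. Among the 4 tested genes of the IL-12 family subunits, 0 passed in either direction and 3 differences were positive (median 1.28, or -0.065 under quantile normalization). The exception was Clcf1, a cytokine of the IL-6 family, at 386 to 534 in CCR6+ and 287 to 779 in CCR6- libraries.

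The promoters of Ebi3, Il12a and Fgl2 are shown, the 3 of the 6 genes with an entry in the promoter collection used here. Each run is the RefSeq sequence (GRCm38.p6, the assembly of mm10) from 250 bases before to 50 bases after the start, on the plus strand. Capitals mark matches, on either strand, to any of 6 motifs searched: AP-1 (TGANTCA), STAT (TTCNNNGAA), the ROR half-site (AGGTCA), the E-box (CACGTG), the ETS core (CCGGAAG) and the TATA box (TATAAA).
Ebi3 chr17:55952373-55952672: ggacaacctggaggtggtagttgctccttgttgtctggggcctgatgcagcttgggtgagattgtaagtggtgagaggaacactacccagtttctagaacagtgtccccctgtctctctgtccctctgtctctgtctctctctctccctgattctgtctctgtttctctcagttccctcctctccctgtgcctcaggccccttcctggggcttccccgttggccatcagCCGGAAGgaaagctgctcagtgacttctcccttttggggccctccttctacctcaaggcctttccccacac
Il12a chr3:68690394-68690693: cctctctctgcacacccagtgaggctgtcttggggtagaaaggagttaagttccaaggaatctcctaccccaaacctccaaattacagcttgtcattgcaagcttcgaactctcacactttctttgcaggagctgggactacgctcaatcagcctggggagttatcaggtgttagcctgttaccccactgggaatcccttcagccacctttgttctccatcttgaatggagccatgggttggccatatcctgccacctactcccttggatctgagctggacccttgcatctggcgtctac
Fgl2 chr5:21372423-21372722: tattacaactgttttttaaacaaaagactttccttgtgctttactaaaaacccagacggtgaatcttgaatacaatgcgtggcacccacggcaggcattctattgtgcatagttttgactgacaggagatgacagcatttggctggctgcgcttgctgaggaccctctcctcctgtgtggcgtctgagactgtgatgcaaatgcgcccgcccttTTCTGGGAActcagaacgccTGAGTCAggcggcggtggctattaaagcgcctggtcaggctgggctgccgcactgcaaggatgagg
The Ebi3 run held an ETS core 21 bases before the start, a motif found in 8.86% of 32851 promoters of this length. The Fgl2 run held a STAT match 36 bases and an AP-1 match 16 bases before the start, motifs found in 8.30% and 7.81% of promoters. No AP-1 match overlapped a STAT match there. The Il12a run, and that of its second annotated start on chromosome 3 from 68691174 to 68691473, held no match to these letters. That collection held no entry for Il10, Il10ra and Il10rb, so their promoters were not searched. The other motifs searched occur in 16.3% (ROR half-site), 7.15% (E-box) and 13.6% (TATA box) of promoters.

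Fgl2 was the most abundant of the 6 genes in every library. It stood at 14638, 12543 and 10529 normalised counts in CCR6+ and at 9192, 8407, 9233 and 12148 in CCR6- libraries. CCR6- replicate 4 lay above CCR6+ replicate 3, so the groups overlapped, although the other 3 CCR6- libraries were below all CCR6+ libraries. The group means were 12570.0 ± 2054 (n = 3) and 9745 ± 1646 (n = 4), a ratio of 1.29. The log2 difference was 0.37 (SE 0.21, 95% interval -0.13 to 0.87), with an adjusted p of 0.517 (limma) and an exact permutation p of 0.0857. It was 0.36 without CCR6+ replicate 2. At least 5514 reads lay behind each value, a counting error of at most 1.35%. The gene lies in an intron of Ccdc146, which is on the other strand, on chromosome 5 from 21372642 to 21378374, and Ccdc146 itself stood between 0.859 and 421 normalised counts.

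The fibrinogen chain genes Fga, Fgb and Fgg did not pass the filter and were at 0 in 4 of the libraries. Fgl1, for a fibrinogen-like protein secreted by hepatocytes that binds the inhibitory receptor LAG-3, stood at 0, 437 and 76.1 in CCR6+ and at 0.946, 0, 30.3 and 0.677 in CCR6- libraries. The receptor genes Fcgr2b and Fcgr3, which B cells and myeloid cells express, stood at 88.3 to 1388 and 136 to 1483 in CCR6+ libraries, against 58.9 to 302 and 38.6 to 259. CCR6+ replicate 2 held the highest value of both. In this list of 8 genes, 5 were tested, 0 passed and all 5 differences were positive, with a median of 1.74. Without CCR6+ replicate 2, Fgl1 did not pass the filter, and the median of the other 4 genes was 0.74. Tigit, for an inhibitory receptor of Treg cells that induces FGL2, stood at 2931, 914 and 2874 in CCR6+ and at 1626 to 2183 in CCR6- libraries (log2 difference 0.023).

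Il10ra encodes the ligand-binding receptor chain. It stood at 7388, 4026 and 5727 normalised counts in CCR6+ and at 5862, 4532, 4579 and 3281 in CCR6- libraries. CCR6+ replicate 1 was the highest and CCR6- replicate 4 the lowest, with the groups overlapping between them. The log2 difference was 0.31 (SE 0.29, 95% interval -0.40 to 1.02), with an adjusted p of 0.632 (limma) and an exact permutation p of 0.343. Without CCR6+ replicate 2, which had the lowest value of its group, it was 0.54, with an adjusted p of 0.732 (limma). It was 0.10 without CCR6+ replicate 1 and 0.16 without CCR6- replicate 4, the libraries of the highest and the lowest value.

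Il10rb, for the shared chain, stood at 3577, 2070.0 and 2874 normalised counts in CCR6+ and at 2671, 2818, 2358 and 3301 in CCR6- libraries. The means were nearly equal, at 2840.4 ± 754 (n = 3) against 2787 ± 393 (n = 4). Its log2 difference of 0.0023 had a 95% interval of -0.58 to 0.58 (limma adjusted p = 0.995, exact permutation p = 1.0), so a difference of up to 0.58 in either direction was not told apart from 0. Its sign turned with TMM scaling, with edgeR and when single libraries were left out, and it was 0.21 without CCR6+ replicate 2. Of its exonic bases, 14.9% overlap Gm21970, a protein-coding annotation on the same strand.

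**Figure D2:**
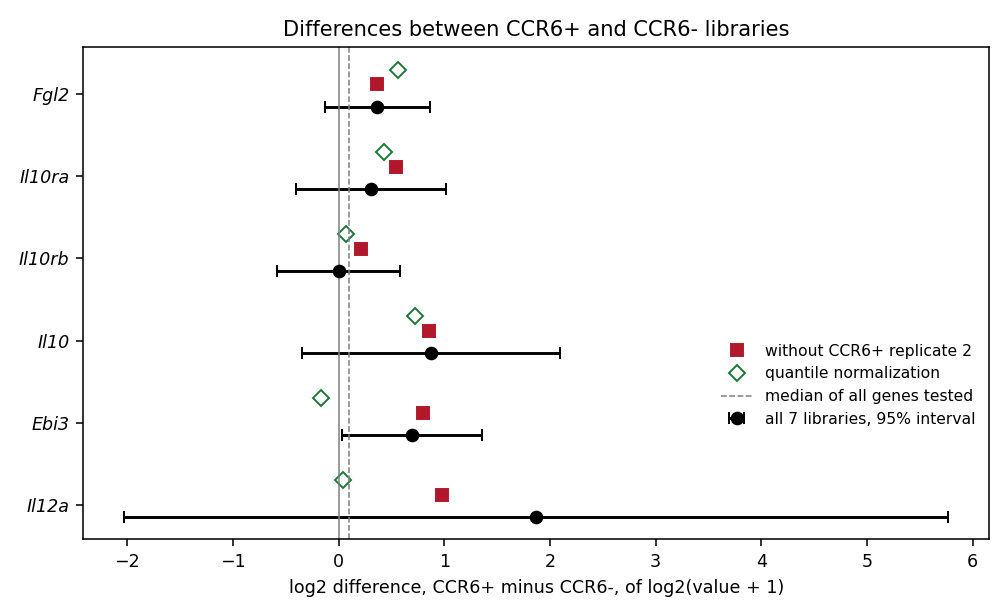
Log2 differences (CCR6+ minus CCR6-, horizontal axis) of the 6 genes, with limma's 95% interval over all 7 libraries (circles), without CCR6+ replicate 2 (squares, for Il12a from its values alone) and with quantile normalization (diamonds). The interval excludes 0 only for Ebi3, from 0.035 to 1.36, whose quantile-normalised value is -0.17.

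Levels of different genes were set side by side as normalised counts per kilobase of annotated exon. On this scale Fgl2 was first and Il10ra second in all 7 libraries, and Il12a was last. The means over the 7 libraries were 2892 for Fgl2, 1446 for Il10ra, 738 for Il10rb, 558 for Il10, 239.8 for Ebi3 and 6.82 for Il12a. Among 14081 protein-coding genes tested, Fgl2 lay at percentile 97.2 of the level per kilobase, Il10ra at 93.2, Il10 at 79.7, Ebi3 at 62.2 and Il12a at 6.51. The middle of the order changed between libraries. Il10 was above Il10rb in CCR6+ replicates 2 and 3 and CCR6- replicate 3, and lay just below Ebi3 in CCR6- replicate 2, at 239.1 against 239.8. Il10rb was above Ebi3 in all 7 libraries, so that only Il10 changed its place in the order.

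**Figure D3:**
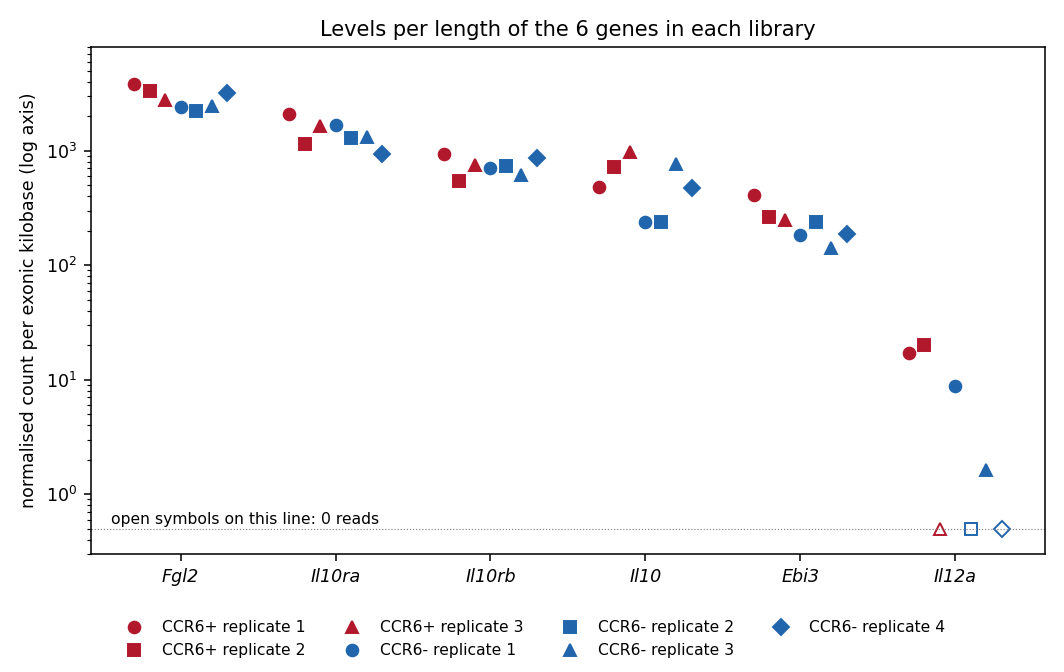
Normalised counts per exonic kilobase (logarithmic axis) of the 6 genes in each library, with libraries without a read drawn as open symbols on the dotted line. Fgl2 lies between 2219 and 3864, Ebi3 between 140 and 415, and Il12a at 20.1 or lower in all libraries.

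The chains of interleukin-35 were unequal wherever both were read. Ebi3 was 24.1 times Il12a per kilobase in CCR6+ replicate 1 and 13.1 times in CCR6+ replicate 2. It was 20.6 times Il12a in CCR6- replicate 1, and 86.5 times in CCR6- replicate 3 on 3 reads of Il12a. The receptor chains kept a steadier ratio. Il10ra was 2.12 to 2.25 times Il10rb per kilobase in the CCR6+ libraries and 1.08 to 2.39 times in the CCR6- libraries, with CCR6- replicate 4 the lowest (exact permutation p of the log2 ratio = 0.4). Fgl2 exceeded Il10 per kilobase 2.83 to 8.01 times in CCR6+ and 3.16 to 10.2 times in CCR6- libraries (exact permutation p = 0.4).

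The genes around these 6 were read from lists of their pathways. In the IL-10 family, 5 of 14 genes were tested and 0 passed. The cytokine genes Il19, Il20, Il22 and Il24 were at most at 29.6 normalised counts, in CCR6+ replicate 2, and at most at 4.06 elsewhere. Il20rb, a receptor chain for IL-19, IL-20 and IL-24, stood at 36.1 to 106 in CCR6+ and at 18.9 to 57.9 in CCR6- libraries, and Il20ra, its partner chain, at 0 to 54.6 and 0 to 40.6. Of the 14 genes of IL-10 receptor signalling and its targets, 0 passed, with 8 positive and 6 negative differences and a median of 0.058, beside 0.097 over all genes. When CCR6+ replicate 2 was left out the median was 0.31, with 12 of 14 positive. Hmox1, for heme oxygenase 1, which macrophages also express strongly, stood at 417, 641 and 336 in CCR6+ and at 136, 333, 183 and 156 in CCR6- libraries. It was the 1 gene of these 14 whose groups did not overlap, a share near the 7.96% of all genes that were higher in this way (log2 difference 1.23, SE 0.38, limma adjusted p = 0.44). The kinase gene Jak1 stood at 32105 to 46250 in CCR6+ and at 43776 to 76909 in CCR6- libraries, and Zfp36, for the mRNA-decay factor tristetraprolin, at 16587 to 24557 against 15321 to 18302.

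Of the 15 genes known as regulators of Il10 transcription in T cells, 0 passed over all genes, and 9 differences were positive and 6 negative (median 0.12, or 0.41 with 11 positive without CCR6+ replicate 2). For 3 of them the CCR6+ libraries lay above all CCR6- libraries, where the share over all genes in that direction is 7.96%. Ahr, the aryl hydrocarbon receptor gene, stood at 4730, 5423 and 3462 normalised counts in CCR6+ libraries and at 1470.0 to 1752 in CCR6- libraries (log2 difference 1.47, SE 0.20, limma adjusted p = 0.222). Bhlhe40, for a transcription factor that represses Il10, stood at 10938, 11142 and 8755 against 6222 to 6752 (log2 difference 0.64, SE 0.16, limma adjusted p = 0.415). Rbpj, for the nuclear partner of Notch, stood at 453, 789 and 469 against 296 to 381 (log2 difference 0.73). Maf, for a factor that activates Il10, stood at 5870, 3160 and 5318 against 2691 to 3601, so that only CCR6+ replicate 2 overlapped the other group, and its difference went from 0.58 to 0.85 without that library. Nfil3, for another such factor, stood at 4486 to 9791 against 5128 to 6558.

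**Figure D4:**
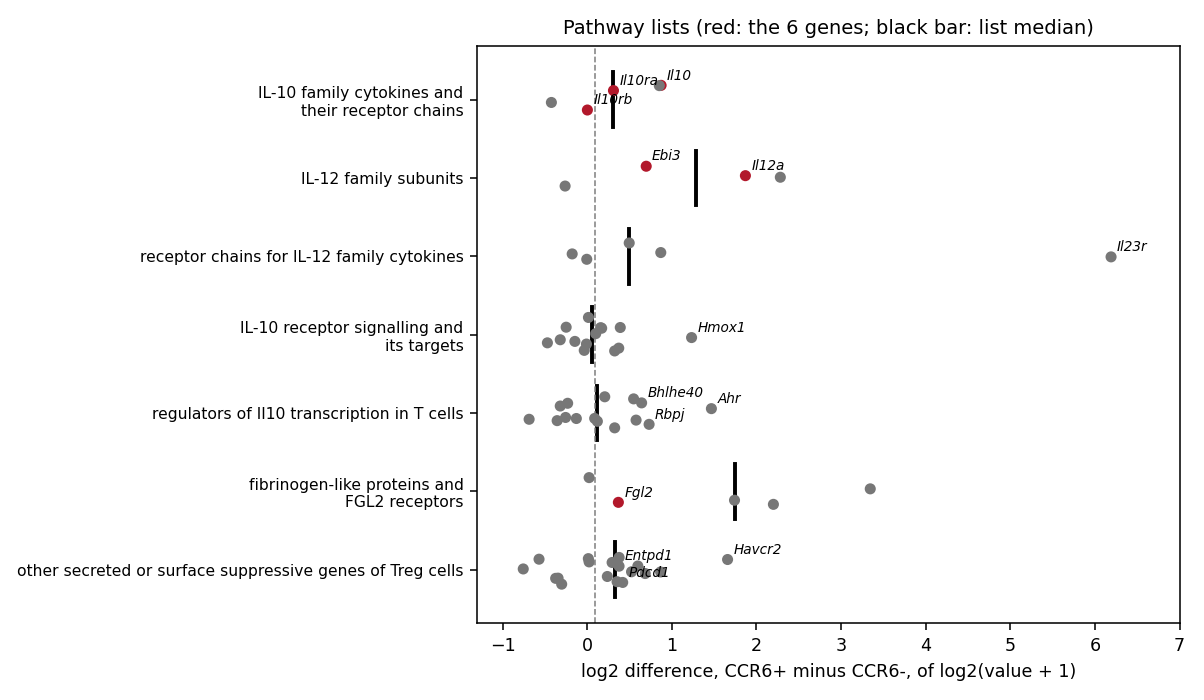
Log2 differences (CCR6+ minus CCR6-, horizontal axis) of the tested genes of 7 pathway lists, with the 6 genes of this report in red, the median of each list as a black bar and the median of all genes as a dashed line at 0.097. Genes are named where they are one of the 6 or where their groups do not overlap, among them Ahr at 1.47 and Il23r at 6.19. Il23r passed the filter through its CCR6+ libraries only.

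Receptor chains for the IL-12 family had log2 differences from -0.18 for Il27ra to 6.19 for Il23r, with a median of 0.50 beside 0.097 over all genes. Without CCR6+ replicate 2, Il23r did not pass the filter, and the median of the other 4 genes was 0.049, so the 2 medians cover different genes. Il6st, for the gp130 chain used by interleukin-35 and interleukin-27, stood at 6397 to 6911 in CCR6+ and 5105 to 7688 in CCR6- libraries (log2 difference -0.0051). Il27ra stood at 10345 to 19867 against 17065 to 18991, and Il12rb1, the chain shared by the interleukin-12 and interleukin-23 receptors, at 2211 to 4187 against 1942 to 2673. Il12rb2, a chain of the interleukin-12 and interleukin-35 receptors, stood at 18.0, 250.2 and 40.6 against 12.4 to 86.1. Of these 5 genes, 0 passed, 3 differences were positive (56.9% of all genes), and 1, Il23r, had CCR6+ libraries above all CCR6- libraries (7.96% of all genes), at 196 to 281 against 0 to 9.20. All CCR6- values of Il23r were under the filter's minimum of 10, so it was tested only because its 3 CCR6+ libraries reached it. Its direction and its lack of overlap thus followed from the filter.

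Among 18 other genes of Treg suppression, 0 passed, with 13 positive and 5 negative differences and a median of 0.32 (0.40 with 14 positive without CCR6+ replicate 2). The CCR6+ libraries were above all CCR6- libraries for 3 of them, where all genes have 7.96%. These were Pdcd1, for the inhibitory receptor PD-1, at 3773 to 4247 against 2343 to 3522, Entpd1, for the ectoenzyme CD39, at 2619 to 3315 against 2068 to 2396, and Havcr2, for the inhibitory receptor TIM-3, at 675 to 1335 against 176 to 410.1. The highest Havcr2 value lay in CCR6+ replicate 2, and the log2 difference of Havcr2 went from 1.66 to 1.38 without that library. Nt5e, for the ectoenzyme CD73, stood at 10625, 4900 and 9074 against 4253 to 5373. Tgfb1, for the cytokine TGF-beta 1, overlapped, at 2962 to 4223 against 1559 to 3679, as did Gzmb, for granzyme B, at 1870 to 4729 against 3116 to 5311.

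The remaining marker lists are given here for the same libraries. Granulocyte and mast cell markers summed to 2879.8 to 6781 in CCR6+ and to 1363 to 2715 in CCR6- libraries, without overlap. Ccr3 made up most of this sum in every library except CCR6+ replicate 2. Its own groups overlapped, at 628 to 3073 against 1299 to 2293, and its difference of -0.18 was the 1 negative of the list, beside 7 positive. Endothelial and stromal markers summed to 6272 to 56026 against 5544 to 8432, with Pecam1 most of the sum in every library except CCR6+ replicate 2. Kdr was the 1 gene of that list whose groups did not overlap (7.96% of all genes), at 263 to 6845 against 50.1 to 183. The markers of NK, innate lymphoid, gamma-delta and CD8 T cells summed to 14547 to 36028 against 10477 to 21848. The T and Treg cell markers had 3 positive differences of 8, and 7 of 8 without CCR6+ replicate 2. No marker of any list passed over all genes, and the part of these cells in the differences of the pathway lists was not tested.

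**Figure D5:**
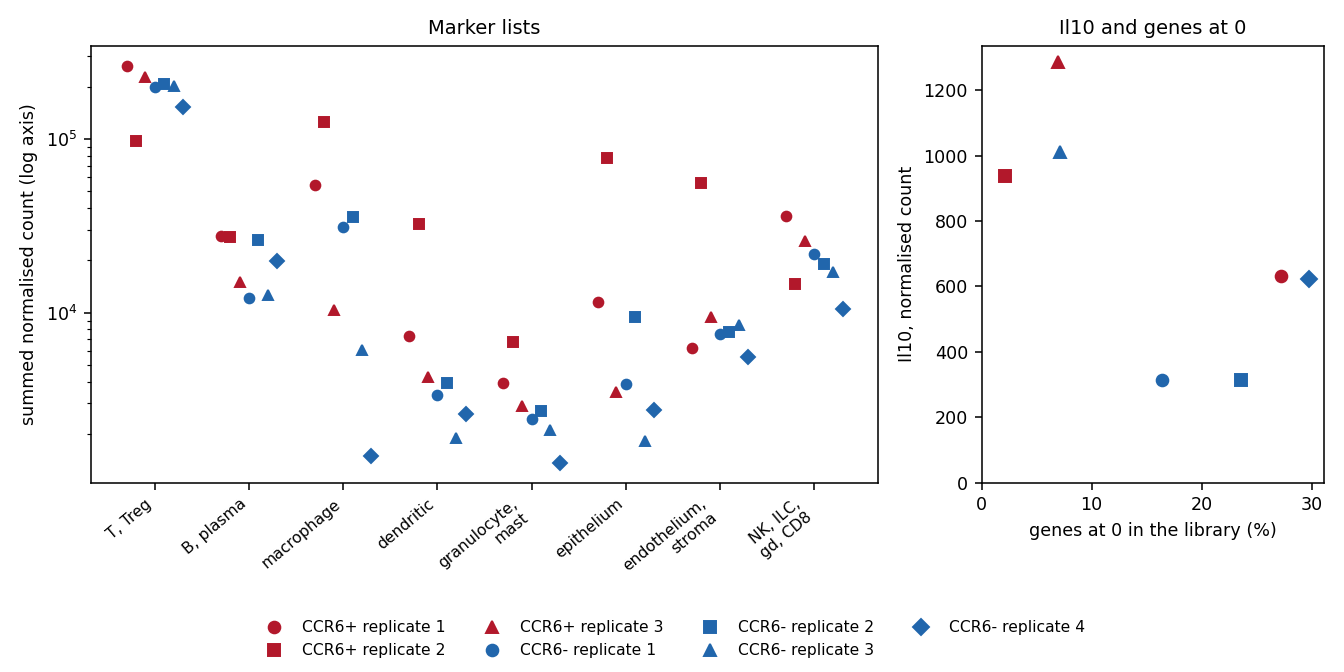
Left, summed normalised counts (logarithmic axis) of 8 marker lists in each library. Right, Il10 (normalised count) against the percentage of genes at 0 in the library. The 3 libraries under 7.1% hold 937 to 1286. The other 4 hold 313 to 632, without a fall as the percentage rises.

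For each of the 6 genes, the 3 genes of most similar profile were taken by Pearson's correlation of log2 values over the 7 libraries, from 11943 genes of mean 50 or more. These are the highest of that many values and so are large by choice, and the points share library and depth. Nearest to Il10 were Pop4, an RNase P subunit gene (r = 0.95, rho = 0.93), Tesk2, a kinase gene (r = 0.94), and Pde4b, for a cyclic AMP phosphodiesterase (r = 0.92, rho = 0.71). Nearest to Ebi3 were Irgm1, for an interferon-induced GTPase (r = 0.97, rho = 0.93), Aplp1 (r = 0.97) and Zfp764 (r = 0.95). Il12a was followed by Zfp296, Dtx4 and Fndc3a (r = 0.97, 0.97 and 0.94), and Fgl2 by Nphp4, Tnip2, for an inhibitor of NF-kappa B activation, and Wdr59 (r = 0.96, 0.96 and 0.93). The receptor gene Il10ra was followed by Nfkbiz, for the nuclear regulator I-kappa-B-zeta (r = 0.99, rho = 1.0), Tbc1d22b and Uhrf2 (r = 0.98 each), and Il10rb by Chpf, Rnpep and Mapkapk3 (r = 0.995, 0.989 and 0.986). Without CCR6+ replicate 2 these correlations lay between 0.92 and 0.99. Among the 6 genes themselves the closest pair over the 7 libraries was Ebi3 and Fgl2 (r = 0.67, rho = 0.68), but without CCR6+ replicate 2 it was Fgl2 and Il10rb (r = 0.86, against 0.66 for Ebi3 and Fgl2). In the 7 libraries Il10 gave r = 0.0090 with Ebi3 and r = -0.069 with Il10ra.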

How the data were processed

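RNA-seq of 7 libraries was analysed. The deposited signal for each gene symbol is a normalised read count, scaled by the authors with 1 size factor per library, since all values were whole multiples of 1 step per library within 0.001 reads. Named in the submitters' processing notes, with no role or order, are DESeq2 1.6.3, HTSeq 0.6.1p1, STAR 2.5.1b and mm10. Neither the annotation nor the use of strand is given in the sources used here. Division by the step recovered 11607780 to 47261246 reads per library. Intervals and floors from reads cover counting error only.

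The 14582 genes that reached 10 in 3 or more libraries were tested with limma 3.58.1 (R 4.3.3) on log2(value + 1), two-sided, without covariates, with Benjamini-Hochberg adjustment at 0.05. This scale understates the change of low genes. Single genes were also tested by exact permutation over 35 assignments of libraries. Levels are mean ± SD of normalised counts. Alternatives were other pseudocounts, filters and scalings, robust moderation, a replicate block, edgeR 4.0.16 and DESeq2 1.42.0 on recovered reads, and each library left out. The scripts were tested on simulated data. Positions and exon lengths are from GENCODE mouse release 21 (mm10). Besides the 6 genes, the text names up to 4 genes of smallest p per pathway list, the 3 most alike per gene and abundant markers. Others (Il6st, Tgfb1, Gzmb, Il23a, Il27, the scarce IL-10 family cytokines, fibrinogen chains and some markers) were chosen after their values were seen. The genes and lists were chosen with earlier results of these data known.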

Additional observations from a re-analysis of the deposited data

Results flagged for a closer look

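The 4 CCR6- libraries were compared within 59 sets of values (genes and marker sums). In 4 sets, 1 library stood far from the rest, which about 5% of sets would show by chance. In CCR6- replicate 4, Ctla4, for an inhibitory receptor of Treg cells, stood at 21782 normalised counts against 39979 to 41858, and the summed level of the T and Treg cell markers, which include Ctla4, stood at 153199 against 199857 to 205645. In CCR6- replicate 2, Nfil3 stood at 6558 against 5128 to 5314. In CCR6- replicate 3, Fgl1 stood at 30.3 against 0 to 0.946. The 3 CCR6+ libraries were too few to be looked at in this way.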

How the results depend on the processing

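No setting brought any of the 6 genes past the threshold (20 settings beside the reported one, 13 for Il12a, which the others filtered out). Il10, Fgl2, Il10ra and Il12a were positive in all of these, from 0.63 to 1.21, 0.25 to 0.56, 0.10 to 0.59 and 0.039 to 3.55. Ebi3 was positive in 19 of 20, with -0.17 under quantile normalization, where the median of all genes was -0.082. Il10rb was negative in 6 of 20, at -0.083 with TMM scaling, -0.037 with edgeR and between -0.18 and 0.21 with single libraries left out (negative without CCR6+ replicate 1, CCR6+ replicate 3, CCR6- replicate 1 or CCR6- replicate 3). The causes were not tested.

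The number of genes called was 0 with limma, with 1540 at an unadjusted p under 0.05. It was 1 with a pseudocount of 0.5 or TMM scaling, 2 with a pseudocount of 8, a mean of at least 100 or edgeR, 4 with quantile normalization, 10 with robust moderation and 679 with DESeq2. It stayed 0 with each library left out. Chosen after the data were seen, edgeR and DESeq2 without CCR6+ replicate 2 called 2 and 181. With no filter the median log2 difference of all genes was 0.43, against 0.097.

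With the replicate number as a block, limma called 0 genes, with 944 at an unadjusted p under 0.05, and Il10 had a difference of 0.98 (adjusted p = 0.749). CCR6- replicate 4 has no partner of its number and adds nothing to the differences in that fit. Deviations of same-numbered libraries from their group means correlated at -0.13, -0.11 and 0.34. Only 1 library, numbered 3, correlated best with the library of its own number. Deviations within groups this small are tied to each other, so these values cannot tell whether same-numbered libraries share a mouse or a batch. Precision is limited by 3 and 4 libraries and, for Il12a, by reads.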

Other observations

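The receptor chains went with different measures over the 7 libraries. Il10ra went with the summed level of the NK, innate lymphoid, gamma-delta and CD8 T cell markers (r = 0.98, rho = 0.93, and r = 0.98 without CCR6+ replicate 2), a sum in which Il1rl1 and Rora were the most abundant genes, both of which Treg cells of the lung also express. With the T and Treg cell sum Il10ra gave r = 0.72, and 0.93 without CCR6+ replicate 2. Without that library Il10ra also gave 0.92 with granulocyte and mast cell markers and 0.82 with macrophage and monocyte markers. Over the 7 libraries those values were 0.32 and 0.46. Il10rb went with the percentage of genes at 0 (r = 0.85, rho = 0.75, and r = 0.78 without CCR6+ replicate 2). These were picked from the 54 relations computed, over libraries that differ in depth, and are given as values only.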
